A study of Drosophila melanogaster with 40 samples.

Results

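The cell cycle switch of the midblastula transition was followed through 9 *Drosophila melanogaster* genes taken by symbol. These were the Cdc25 phosphatase genes *stg* (FBgn0003525) and *twe* (FBgn0002673), the cyclin genes *CycA* (FBgn0000404), *CycB* (FBgn0000405), *CycB3* (FBgn0015625) and *CycE* (FBgn0010382), the checkpoint kinase gene *grp* (FBgn0261278), and the mitotic inhibitor genes *trbl* (FBgn0028978) and *Z600* (FBgn0004052, also named *frs*). The rule used no measured value. They are 9 of 17665 genes listed in at least 1 of the 7 expression tables and 9 of 13986 protein-coding genes used for the peak lists. The tables hold 12 groups of 2 RNA-seq libraries each, and 8 members had a value in all 12. *Z600* had a value in 8 and was not listed in the tables of 0.75-h *jumu* embryos and of ovaries.

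The early fly embryo runs through rapid, nearly synchronous nuclear cycles on RNA and protein loaded by the mother, and then pauses in interphase of cycle 14 while its own genome is switched on. Cdk1 with a mitotic cyclin drives each entry into mitosis, a Cdc25 phosphatase activates that kinase, and the pause goes with the loss of Twine protein and inhibition of Cdk1. Later divisions of cycle 14 follow zygotic transcription of *stg*, cell by cell.

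The groups were as follows. At 3 h, *jumu* M-,Z- embryos lacked the maternal and the zygotic product of *jumu*, *jumu* M-,Z+ embryos lacked the maternal product and had a wild-type father, and the wild type of the same table was w1118. At 0.75 h, *jumu* M-,Z+ embryos were set against w1118 embryos of their own table. M- DMAD embryos at 3 h came from *DMAD* mutant mothers and were set against a further w1118 collection, *jumu* mutant ovaries against w1118 ovaries, and w1118 embryos at 0.75 h, 3 h and 6 h formed the stage series, in which each stage is a table of its own. *jumu* encodes a Forkhead domain protein and *DMAD* (*Tet* in the gene annotation) the enzyme that removes N6-methyladenine (6mA) from DNA. The study made its *jumu* alleles with CRISPR/Cas9 and describes its *DMAD* alleles as null, but which allele each library carried is not given in the sources used here. The 6 peak lists came from 6mA DNA immunoprecipitation of w1118 embryos at the 3 stages and of *DMAD* knockdown embryos at 6 h, and from pull-down of w1118 genomic DNA with Flag-tagged Jumu at 0.75 h and 6 h, with 1 library each. The knockdown was made by injecting double-stranded RNA into w1118 embryos. The labels give "embryo" as the tissue of the ovary samples, while their titles and ages say ovary.

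Every expression value is an FPKM, a fragment number scaled to transcript length and to the mapped fragments of the library, deposited as 1 pooled value per group. Libraries therefore could not be compared with each other, no test was possible, and no value carries an error. Groups were compared by the difference in log2(FPKM + 1), and a gene was called when that difference reached 1, provided that either group's FPKM reached 1. The only measure of spread was given by wild-type collections of the same stage in different tables. Among 6936 genes whose FPKM reached 1 in each of the 3 wild-type 3-h collections, the highest value was at the median 2.94 times the lowest. Between the 2 wild-type collections at 0.75 h it was 1.2 times, over 6934 genes. The paper compared the stages with Cuffdiff, but whether any of the tables were normalized together is not stated in the sources used here. Levels set side by side across tables, the stage series included, have that limit. The stage series and the 3-h *jumu* table were also sequenced on different instruments.

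Library labels and stage were checked first. *jumu* stood at 55.5 FPKM in M-,Z- embryos, 103 in M-,Z+ embryos and 71.8 in their wild type at 3 h, and *jumu* ovaries at 68.9 against 68.0 in wild-type ovaries. *Tet* stood at 3.41 FPKM in M- DMAD embryos against 1.49 in their wild type. At 0.75 h *jumu* stood at 73.9 FPKM in M-,Z+ embryos against 98.7 in wild type. Small lesions can leave RNA in place, so these levels do not check the labels. The ovary label was matched by the 8 eggshell and yolk genes, which lay between 359 and 12019 FPKM in ovaries and at or below 9.93 FPKM in every embryo group that lists them.

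Wild-type embryos: the 9 RNAs ran differently across the 3 stages. *twe*, *CycA* and *CycE* were lower at each later stage, *CycB*, *stg* and *grp* were lowest at 3 h, *trbl* and *CycB3* were highest at 3 h, and *Z600* was all but limited to 3 h. At 3 h against 0.75 h, 2 of 9 members were called higher and 3 lower, where 24.6% of 8832 genes were called higher and 28.6% lower. At 6 h against 3 h, 1 member was called higher and 2 lower, where 24.4% of 9576 genes were called higher and 16.3% lower. Nothing is read from these counts of members, and what follows describes single genes.

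Twine and String are the 2 Cdc25 phosphatases of the fly. *twe* had 123 FPKM at 0.75 h, 62.8 at 3 h and 17.1 at 6 h. *stg* had 234, 41.7 and 185 FPKM at the same stages. *stg* was thus lower at 3 h than at 0.75 h (log2 difference -2.46) and higher again at 6 h (2.12), while *twe* was lower at 6 h than at 3 h (log2 difference -1.81). At 3 h against 0.75 h the difference of *twe*, -0.96, stayed just short of the limit, and was called after quantile normalization (-1.06). Between the wild-type collections of the *jumu* tables the order was turned round, with -2.96 for *twe* and -0.96 for *stg*. *twe* overlaps *EndoGI* on the other strand, and strand-specific counting is not stated, so their reads cannot be told apart there. The ratio of the 2 FPKM values within a group is untouched by any factor common to that group, and was taken up after the levels had been seen. *stg* over *twe* stood at 1.91 in 0.75-h, 0.665 in 3-h and 10.8 in 6-h embryos.

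The cyclin RNAs stayed abundant. *CycB*, whose protein partners Cdk1 in mitosis, had 1522 FPKM at 0.75 h, 501 at 3 h and 595 at 6 h, and was called lower at 3 h (log2 difference -1.60, or -0.96 and not called after scaling to the median). *CycB3*, a mitotic cyclin of the same class, ran the other way with 298, 540 and 459 FPKM, and neither of its differences was called. Scaling to the median, which moved the median of all genes to 0.80, brought the first difference of *CycB3* to 1.49, past the limit. Quantile normalization brought it to 0.31. *CycA*, needed for mitosis, had 884, 619 and 533 FPKM. *CycE*, the S-phase partner of Cdk2, had 234, 206 and 121 FPKM. *CycA* overlaps *CG7264*, and *CycE* overlaps noncoding genes, on the other strand, with the same limit as *twe*. The ratio of *CycB* to *CycB3* stood at 5.11 in 0.75-h, 0.928 in 3-h and 1.3 in 6-h embryos, so the order of these 2 RNAs per length was turned round at 3 h and turned back by 6 h, with little between them at both later stages.

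*grp* encodes the fly Chk1 kinase of the replication checkpoint, which mothers supply. It had 295 FPKM at 0.75 h, 54.9 at 3 h and 87.2 at 6 h, a called difference of -2.40 from 0.75 h to 3 h. The gene overlaps *squ* and other annotated genes, and since strand-specific counting is not stated their reads cannot be told apart. *trbl*, whose product promotes turnover of String, had 27.9, 244 and 158 FPKM and was called higher at 3 h by 3.08. *Z600*, the zygotic inhibitor of mitosis known as Frühstart, had 1.15 FPKM at 0.75 h and 2597 FPKM at 3 h, a difference of 10.24, and was listed at 0 at 6 h. Of all genes, 0.0226% stood as far above their 0.75-h level. It overlaps *gdl* and *gdl-ORF39* on the same strand, whose reads cannot be told apart there.

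**Figure D1:**
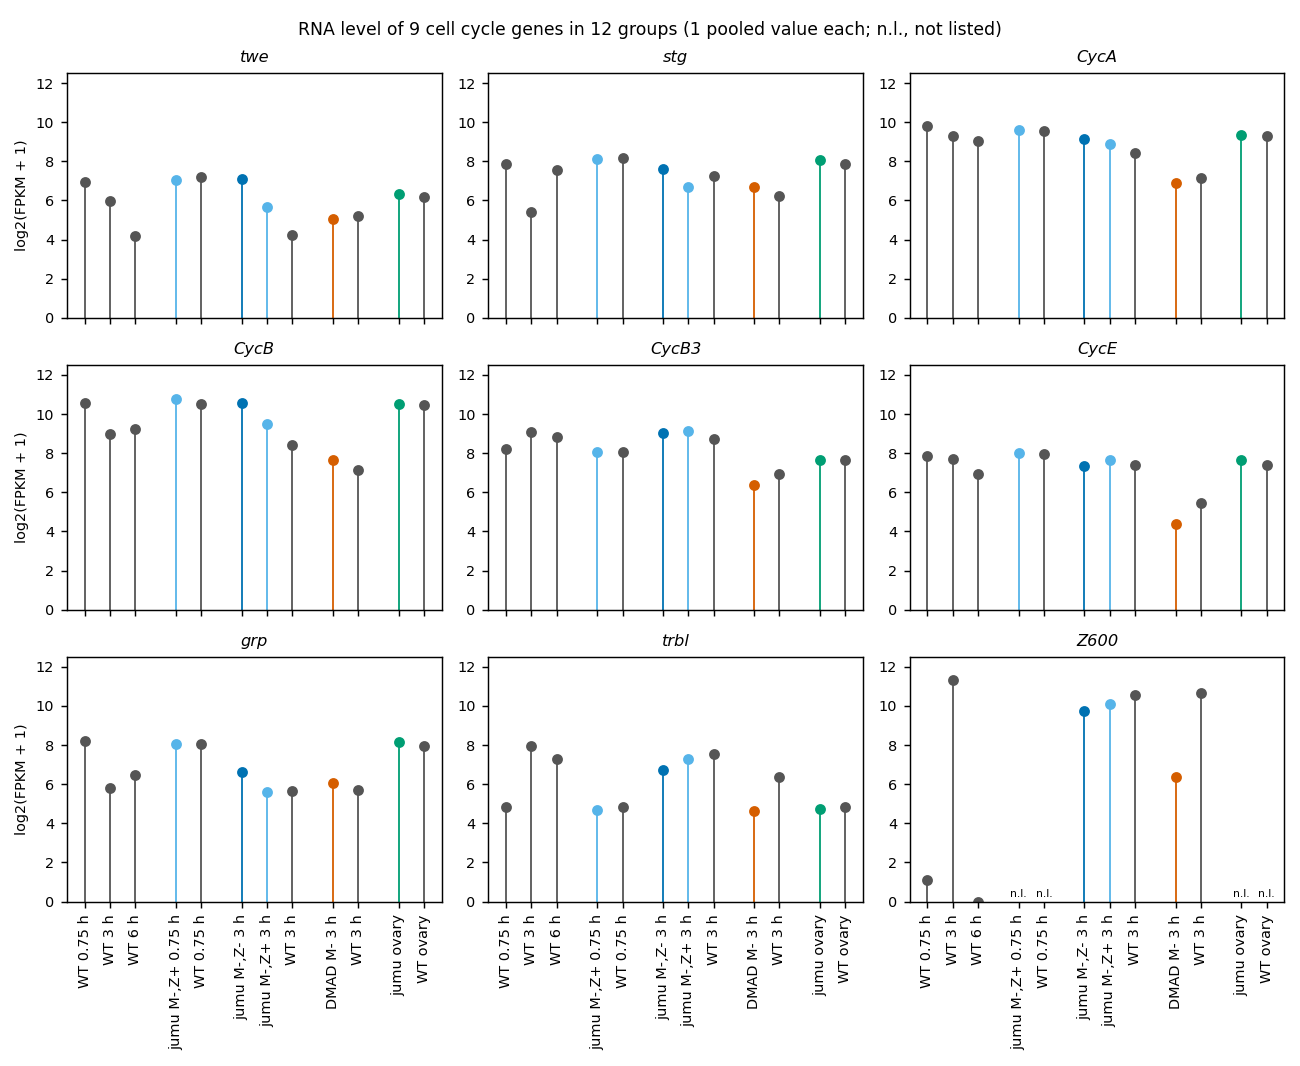
Level of each gene in the 12 groups as log2(FPKM + 1), with 1 pooled value per group. Groups are set apart by table, grey marks w1118, and other colours mark mutants. *Z600* stands at 2597 FPKM in the 3-h group of the stage series and is listed at 0 at 6 h, while *CycB* stays above 139 FPKM in every group.

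The upstream sequences of *Z600* and *stg* are shown because these are the member expressed almost only at 3 h and the only member called higher at 6 h than at 3 h. Both are 250 bases ending at the base before the annotated gene start, in the direction of transcription, from the RefSeq Release 6 assembly (dm6). Capitals mark CAGGTAG or CAGGTAA on either strand, heptamers of the TAGteam family that the early activator Zelda is known to bind.
Z600 (chr3L:15508811-15509060, + strand): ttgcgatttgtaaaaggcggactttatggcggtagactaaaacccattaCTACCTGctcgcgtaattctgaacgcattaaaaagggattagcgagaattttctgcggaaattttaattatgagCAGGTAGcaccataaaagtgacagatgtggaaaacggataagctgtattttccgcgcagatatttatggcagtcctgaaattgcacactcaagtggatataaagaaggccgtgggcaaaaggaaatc
stg (chr3R:29255801-29256050, - strand): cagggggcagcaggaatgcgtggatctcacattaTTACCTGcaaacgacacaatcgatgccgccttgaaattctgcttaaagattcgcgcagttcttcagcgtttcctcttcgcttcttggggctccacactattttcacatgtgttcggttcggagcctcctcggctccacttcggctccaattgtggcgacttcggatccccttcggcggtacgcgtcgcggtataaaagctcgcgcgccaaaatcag
*Z600* holds CAGGTAG at 2 places, starting 201 and 127 bases before the gene start. Of 13968 protein-coding genes, 1.5% hold it in a window of this length. *stg* holds CAGGTAA at 1 place, 216 bases before the start, as do 2% of genes, and 2 copies of CAGGTAG at 434 and 295 bases in a window of 1000 bases, where 6.38% of genes have 1 or more. The other 7 members hold neither heptamer in their 250 bases. In the window of 1000 bases *CycB3* holds CAGGTAA at 1 place, 880 bases before the start, where 7.93% of genes have 1 or more, and the rest of the 7 hold neither. A match describes the letters and is not a binding site.

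The members also differed between the 3 wild-type collections at 3 h. *stg* had 41.7, 149 and 74.8 FPKM in the stage, *jumu* and *DMAD* tables, and *twe* had 62.8, 18.0 and 36.5 FPKM. The table with the lowest *twe* had the highest *stg*, so *stg* over *twe* was 0.665, 8.31 and 2.05. *CycE* spread most, with a highest value 4.83 times the lowest, followed by *CycA* at 4.45, *CycB3* at 4.39, *CycB* at 3.6, *stg* at 3.58, *twe* at 3.49, *trbl* at 2.95 and *Z600* at 1.75. *grp* spread least, at 1.11, with 54.9, 49.2 and 50.7 FPKM. At 0.75 h the 2 wild-type collections lay within 1.24 times of each other for all 8 members listed in both. A mutant value at 3 h was therefore also read against the range of the 3 wild-type values.

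Loss of maternal and zygotic *jumu* at 3 h: *twe* and *CycB* were higher than in wild type, and no member was called lower. *twe* had 135 FPKM in M-,Z- embryos, 50.4 in M-,Z+ embryos and 18.0 in wild-type embryos. The M-,Z- level was 7.51 times that of the wild type (log2 difference 2.84), a distance that 0.763% of genes reached, and lay above all 3 wild-type collections. Against the stage-series wild type, with quantile normalization, the difference was 0.87 and not called. The M-,Z+ level was 2.8 times that of its wild type (1.44), yet lay within the 3 wild-type collections, below the 62.8 FPKM of the stage series. *CycB* had 1513 FPKM in M-,Z- embryos, 718 in M-,Z+ embryos and 345 in wild-type embryos, differences of 2.13 and 1.05, and both mutant levels lay above the 139 to 501 FPKM of the 3 wild-type collections.

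**Figure D2:**
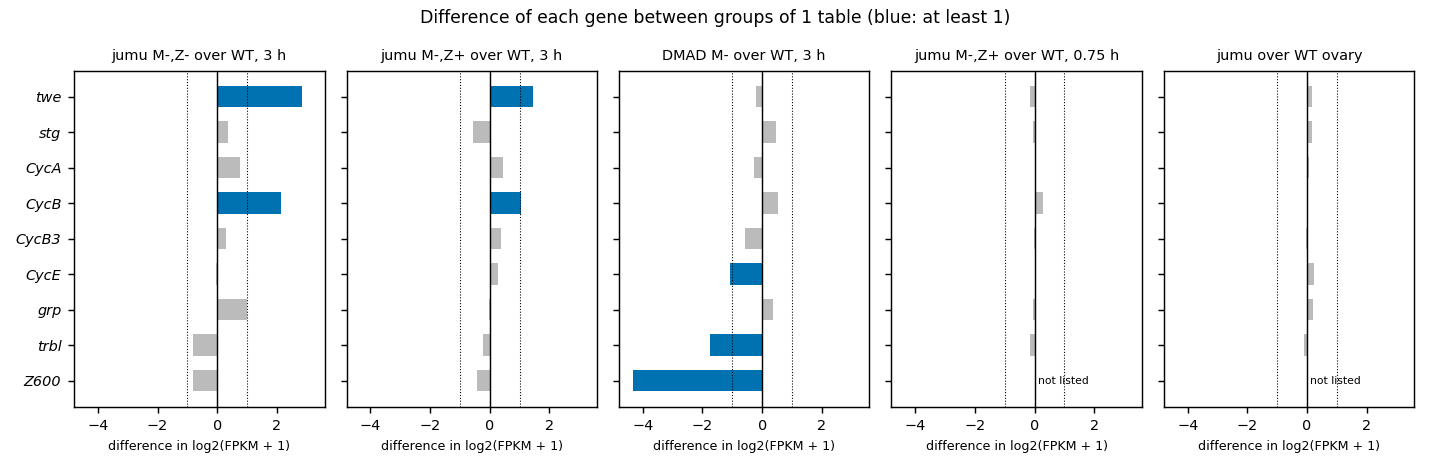
Difference in log2(FPKM + 1) of each gene, mutant minus the wild type of its own table, with dotted lines at -1 and 1 and called differences in blue. *twe* and *CycB* pass the line in both *jumu* groups at 3 h, *Z600*, *trbl* and *CycE* pass it downwards in M- DMAD embryos, and no gene passes it at 0.75 h or in ovaries.

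So 2 of 9 members were called higher and 0 lower in M-,Z- embryos, where 18.6% of 9828 genes were called higher and 20.7% lower. In M-,Z+ embryos the same 2 were higher and 0 lower, where 11.5% of 10019 genes were called higher and 11.5% lower. Both comparisons share their wild type. In M-,Z+ embryos the call of *twe* was lost after quantile normalization (0.96) and that of *CycB* after scaling to the median (0.68). With the stage-series wild type and quantile normalization neither was called, at -0.31 for *twe* and 0.92 for *CycB*. The median difference of the members was 0.36 in M-,Z- embryos, against -0.03 for all genes, and 0.28 in M-,Z+ embryos, against 0.04 for all genes. Among the others, *grp* had 98.5 FPKM in M-,Z- embryos, 48.3 in M-,Z+ embryos and 49.2 in wild-type embryos. Its M-,Z- difference of 0.99 missed the limit, although 98.5 FPKM lay above a wild-type range of 49.2 to 54.9. *stg* had 192, 102 and 149 FPKM in the same order, with the M-,Z- value above all 3 wild-type collections. *CycA* had 568, 463 and 338 FPKM, within the wild-type range of 139 to 619.

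The inhibitors stood lower without reaching the limit, although in M-,Z- embryos both reached it after scaling to the median (-1.48 for each). That scaling moved the median of all genes to -0.72. After quantile normalization *trbl* stood at -1.25, past the limit, and *Z600*, over the tables that list it, at -0.74, short of it. *trbl* had 104 FPKM in M-,Z- embryos, 158 in M-,Z+ embryos and 182 in wild-type embryos, all within the wild-type range of 82.7 to 244. *Z600* had 854 FPKM in M-,Z- embryos, 1091 in M-,Z+ embryos and 1485 in wild-type embryos, and both mutant levels lay below all 3 wild-type collections. *CycE* had 164, 203 and 168 FPKM in the same order and *CycB3* 528, 560 and 429, so these 2 differed from wild type by at most 0.38 on the log2 scale in either mutant. The 560 FPKM of *CycB3* in M-,Z+ embryos lay above all 3 wild-type collections, the highest of which had 540.

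Set against each other within the table, M-,Z- embryos were higher than M-,Z+ embryos in *twe* by 1.40, in *CycB* by 1.07 and in *grp* by 1.01. That is 3 of 9 members higher and 0 lower, where 5.12% of 9075 genes were called higher and 13.2% lower. After quantile normalization the differences of *CycB* and *grp* were 0.84 and 0.71, and not called. *stg* differed by 0.91. *stg* over *twe* was 1.42 in M-,Z- embryos and 2.02 in M-,Z+ embryos, against 8.31 in their wild type, and *CycB* over *CycB3* was 2.87 and 1.28, against 0.805.

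**Figure D3:**
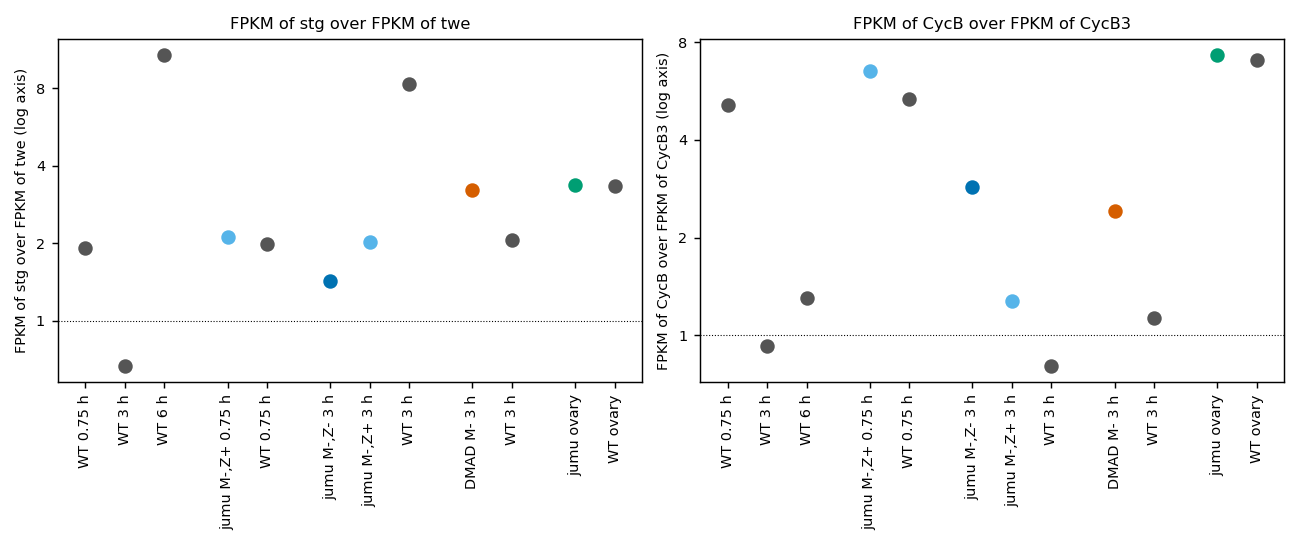
FPKM of *stg* over that of *twe*, and of *CycB* over that of *CycB3*, in each group, on log axes with a dotted line at 1. The wild-type 3-h values of *stg* over *twe* run between 0.665 and 8.31, while *CycB* over *CycB3* is 0.805 to 1.13 in the 3 wild-type 3-h groups and 1.28 to 2.87 in the 3 mutant 3-h groups.

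RNAs that mark the maternal supply moved with *twe* and *CycB*. The 6 maternal markers found in the files (*bcd*, *osk*, *smg*, *png*, *gnu* and *bru1*) summed to 918 FPKM in M-,Z- embryos, 326 in M-,Z+ embryos and 55.99 in their wild type, and to 208 and 187 FPKM in the other wild-type 3-h collections. Of the 6, 6 were called higher in M-,Z- embryos and 3 in M-,Z+ embryos. *smg* alone held 624 of the 918 FPKM, 230 of the 326 FPKM and 26.7 of the 55.99 FPKM. In M-,Z+ embryos *smg* and *bcd* lay above the 3 wild-type collections, and the other maternal markers lay within them. In M-,Z- embryos all maternal markers but *png* lay above those collections. The 7 cycle 14 markers summed to 1386, 2133 and 2226 FPKM in M-,Z-, M-,Z+ and wild-type embryos. Of the 7, 2 were called lower and 1 higher in M-,Z- embryos, and 0 lower and 1 higher in M-,Z+ embryos. *nullo* was higher in both, with 48.4 FPKM in M-,Z- and 44.5 in M-,Z+ embryos against 13.4 in wild type. Cuticle protein genes, which mark late embryos, summed to 178 FPKM in M-,Z-, 455 in M-,Z+ and 1715 in wild-type embryos. A single gene held 150 of the 178 FPKM in M-,Z- embryos. In the stage series the sum was 491 FPKM at 0.75 h, 955 at 3 h and 757 at 6 h, so it did not rise steadily with stage. The other wild-type 3-h collections had 955 and 101 FPKM, the second over the 54 genes it lists, so both mutant sums lay within the wild-type range. Against their own wild type, 51 of 56 tested were called lower in M-,Z- embryos and 42 of 56 in M-,Z+ embryos. Already at 0.75 h, 14 of 16 tested cuticle genes were called lower in M-,Z+ embryos than in wild type. The part of these marker differences in the member results was not tested.

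**Figure D4:**
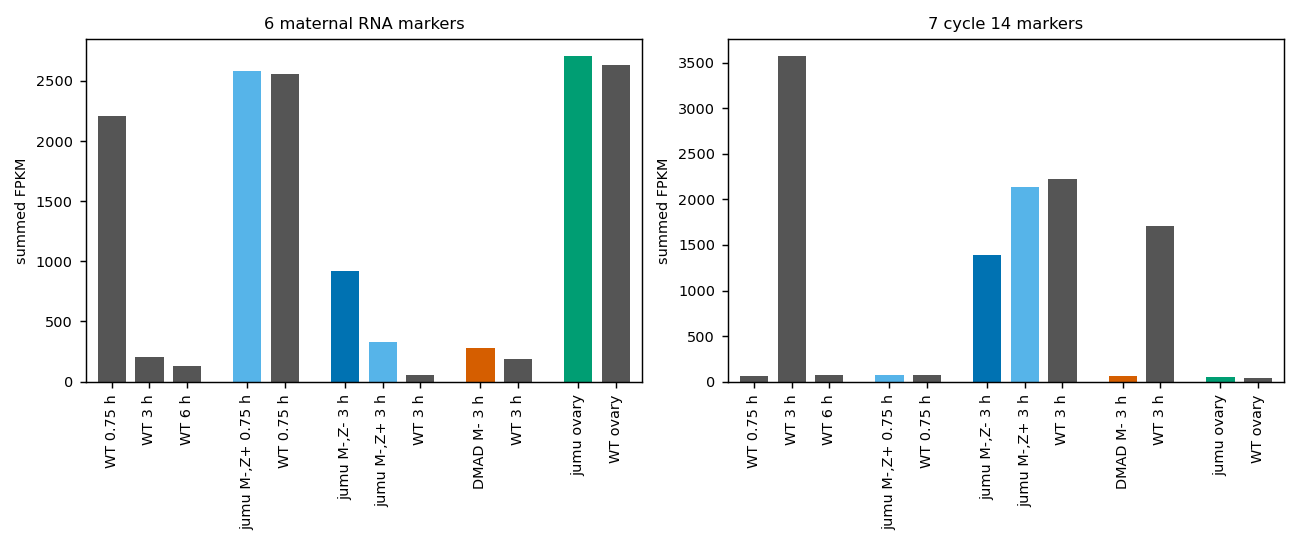
Summed FPKM of 6 maternal RNA markers and of 7 cycle 14 markers in each group. At 3 h the maternal sum is 918 in *jumu* M-,Z-, 326 in *jumu* M-,Z+ and 278 in M- DMAD embryos, against 55.99 to 208 in the 3 wild-type groups, and the cycle 14 sum is 59.8 in M- DMAD embryos against 1709 in their wild type. *smg* alone holds 624 of the 918 and 230 of the 326.

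Other cell cycle genes were read from 5 lists of 68 symbols, 64 of them in the files. In wild-type embryos 5 of these 64 were called higher and 35 lower at 3 h against 0.75 h, beside 24.6% and 28.6% of all genes. At 6 h against 3 h, 23 were higher and 3 lower, beside 24.4% and 16.3% of all genes. *Cdk1* itself had 496 FPKM at 3 h against 246 at 0.75 h, and *fzy*, the Cdc20 activator of the anaphase-promoting complex, had 325 against 157. *Myt1*, an inhibitory kinase of Cdk1, had 3.82 FPKM at 3 h against 49.9 at 0.75 h. *dap*, the inhibitor of Cyclin E and Cdk2, had 7.86 FPKM at 3 h against 102 at 0.75 h, and 165 FPKM at 6 h. In M-,Z- embryos 15 of the 64 were called higher and 2 lower at 3 h, beside 18.6% and 20.7% of all genes, and in M-,Z+ embryos 4 higher and 3 lower, beside 11.5% of all genes each way. Outside the 3 wild-type values, in the direction of the call, lay 14 of the 15 and 1 of the 2 in M-,Z- embryos, and 3 of the 4 and 0 of the 3 in M-,Z+ embryos. The same share was not computed over all called genes, so nothing about cell cycle genes is read from these counts. In the M-,Z- group *CycD*, the D-type cyclin, had 145 FPKM against 25.9 in wild type, and its partner kinase *Cdk4* had 94.4 against 24.2. *gwl*, the Greatwall kinase, had 116 against 23.9 FPKM, and *tws*, a regulatory subunit of the PP2A phosphatase that opposes Cdk1, had 72.9 against 16.5. The checkpoint genes *mus304* (ATRIP) and *Rad17* (clamp loader) had 25.9 against 5.13 and 31.0 against 6.34 FPKM. The origin genes *Orc5* and *Orc2* were the 2 called lower, at 18.9 against 45.6 and 10.6 against 23.4 FPKM, but *Orc2* had 9.01 FPKM in the stage-series wild type at 3 h, so its M-,Z- level lay within the wild-type range. In M-,Z+ embryos *Rca1*, an inhibitor of the anaphase-promoting complex, had 21.5 against 52.0 FPKM, and 12.3 FPKM in the stage-series wild type, so that it too lay within the range.

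Before zygotic activation and in the ovary, no member was called. At 0.75 h, 0 of 8 listed members were called in M-,Z+ embryos, where 1.36% of 7703 genes were called higher and 3.75% lower. *CycB*, with 1738 FPKM in M-,Z+ embryos against 1441 in wild type, had the largest difference, 0.27, and *twe* had 132 against 146 FPKM. In ovaries 0 of 8 were called, where 1.57% of 7918 genes were called higher and 5.08% lower. *CycE* had the largest difference there, 198 FPKM in *jumu* mutant ovaries against 170 in wild-type ovaries (0.22). Of the wider lists, *Cks30A*, a Cdk-binding subunit, was the single gene called at 0.75 h, with 61.1 FPKM in M-,Z+ embryos against 178 in wild type, and 0 genes were called in ovaries. In wild-type ovaries *CycB* had 1406 FPKM, *grp* 247 and *trbl* 27.4, near their levels in wild-type 0.75-h embryos, while *twe* had 70.5 FPKM in ovaries and 123 and 146 in those embryos.

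The *jumu* tables also allow the 3-h level to be set against the 0.75-h level of the same genotype, across tables. *twe* at 3 h was 38.1% of its 0.75-h level in M-,Z+ embryos and 12.3% in wild type, and *CycB* was 41.3% and 23.9%. *stg* ran the other way, with 36.4% in M-,Z+ embryos and 51.4% in wild type. *CycA* was 59.4% and 45.2%, *CycE* 79.5% and 67.2%, and *CycB3* 210% and 159%. *grp* was 18.5% and 18.3%, and *trbl* was 638% and 657%. No 0.75-h group of the M-,Z- genotype was analysed here.

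Loss of maternal *DMAD* at 3 h: the mitotic inhibitor genes *Z600* and *trbl*, and *CycE*, were lower. *Z600* had 80.2 FPKM in M- DMAD embryos against 1629 in wild type, a difference of -4.33 that 0.279% of genes reached. *trbl* had 23.7 against 82.7 FPKM (-1.76), and *CycE* had 19.6 against 42.6 FPKM (-1.09). All 3 mutant values lay below the 3 wild-type collections. That is 0 of 9 members higher and 3 lower, where 23.0% of 8961 genes were called higher and 5.07% lower. The call of *CycE* was lost after quantile normalization (-0.74), while those of *trbl* (-1.12) and, over the tables that list it, *Z600* (-3.65) were kept.

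The other 6 members were not called. *CycB3* had 82.6 FPKM in M- DMAD embryos against 123 in wild type and *CycA* 116 against 139, both below all 3 wild-type collections, while *CycB* had 199 against 139. *stg* had 102 against 74.8 FPKM, *twe* 31.7 against 36.5 and *grp* 66.1 against 50.7. The *grp* value lay above all 3 wild-type collections, and those of *CycB*, *stg* and *twe* lay within them. *stg* over *twe* was 3.23 against 2.05. Of the 64 listed pathway genes, 3 were called higher and 0 lower among 63 tested, beside 23.0% and 5.07% of all genes. They were *dap* with 27.8 against 4.35 FPKM, within the wild-type range since the *jumu*-table wild type had 33.4, *cort*, a meiotic activator of the anaphase-promoting complex, with 4.36 against 1.36, and *gwl* with 33.5 against 16.2.

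Stage markers differed too, most of all in the cycle 14 and cuticle lists. All 7 cycle 14 markers were called lower in M- DMAD embryos, summing to 59.8 FPKM against 1709 in wild type, and *bnk* stood at 3.11 against 1160 FPKM. The 6 maternal markers summed to 278 against 187 FPKM, with 1 called higher and 0 lower, and *png* stood below its wild-type level. The 6 markers of stages after gastrulation summed to 40.97 against 27.19 FPKM, with 1 called higher and 0 lower. The 54 cuticle genes listed summed to 8091 against 101 FPKM. Of 46 cuticle genes tested, 41 were called higher and 1 lower. The part of these stage differences in the low *Z600* and *trbl* was not tested. In whole embryos, fewer cells with a transcript and less transcript per cell cannot be told apart.

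Genes with a pattern like that of each member were sought by Pearson correlation of log2(FPKM + 1), as a description over groups that share tables and controls. Over 12 groups and 7029 genes, the most alike was *CG40045* for *stg* (r = 0.961), *uri* for *twe* (0.966), *CG14621* for *CycA* (0.986), *ced-6* for *CycB* (0.996), *tgo* for *CycB3* (0.986), *hb* for *CycE* (0.99), *Nrt* for *trbl* (0.974) and *CG14043* for *grp* (0.999). For *Z600*, over 8 groups and 7335 genes, it was *bard* (0.999). Among the members, *CycA* and *CycE* were most alike (r = 0.94), and *grp* ran against *trbl* (r = -0.791).

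*CycE* was the member with a 6mA peak in all 4 lists, and *stg*, *CycA*, *trbl* and *grp* had one in some. A peak was counted when its centre lay in the gene or within 1 kb of it. At 0.75 h, 4 of 9 members had one (*stg*, *CycE*, *trbl* and *grp*), where 22.7% of 13986 protein-coding genes had one. At 3 h and at 6 h only *CycE* did, where 7.46% and 5.06% of genes did. In *DMAD* knockdown embryos at 6 h *stg*, *CycA* and *CycE* did, where 15.7% of genes did. In the Jumu pull-down *CycE* had a peak at 0.75 h and 0 of 9 members at 6 h, where 4.69% and 2.04% of genes had one. *twe*, *CycB*, *CycB3* and *Z600* had none in any of the 6 lists. Each list is 1 library, and a long gene gives more room for a peak. *CycE* (20570 bp) and *grp* (19873 bp) are at least as long as 92.9% and 92.6% of coding genes, and *Z600* (453 bp) as 2.38%.

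The score of a peak is 10 times the -log10 of its q value. The *stg* peak at 0.75 h (chr3R:29255085-29255268) had a score of 38, which 93.7% of that list reached, and a peak in the knockdown list (chr3R:29254942-29255326) at the same place had 134, below the list's median of 161. Both lie in the 5′ UTR of *stg*, and neither the 3-h nor the 6-h wild-type list has a peak there. At *trbl* a single 0.75-h peak with a score of 58 lay in an intron, and at *CycA* a single knockdown peak with a score of 84 did. The *grp* peak (chr2L:16679176-16679552, score 110) was centred upstream at -690 bp from the gene start, in the 3′ UTR of *her* and over *INE-1* transposon remnants.

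At *CycE* the peak present in all 4 6mA lists lay just beyond the 3′ end of the gene in an annotated *Quasimodo* transposon insertion. Its score was 1967 at 0.75 h, 430 at 3 h, 4998 in *DMAD* knockdown embryos at 6 h and 493 in wild-type embryos at 6 h. Reads of a repeated element can come from other copies, which cannot be told apart here. Within the gene, peaks in the 5′ UTR (chr2L:15731396-15731669, score 201) and in an intron (chr2L:15744873-15745173, score 143) of the 0.75-h list were met by knockdown peaks of 90 and 37 at the same places and by none at 3 h or 6 h in wild type. The Jumu pull-down at 0.75 h had a peak of 165 in the transposon and 1 of 81 in another intron, where no 6mA list has a peak. Outside the 1-kb limit, a peak about 2.6 kb before *twe* stood in all 6 lists, with a score of 6345 in the 0.75-h 6mA list. Its centre lay in the 3′ UTR of another gene, *crp*.

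**Figure D5:**
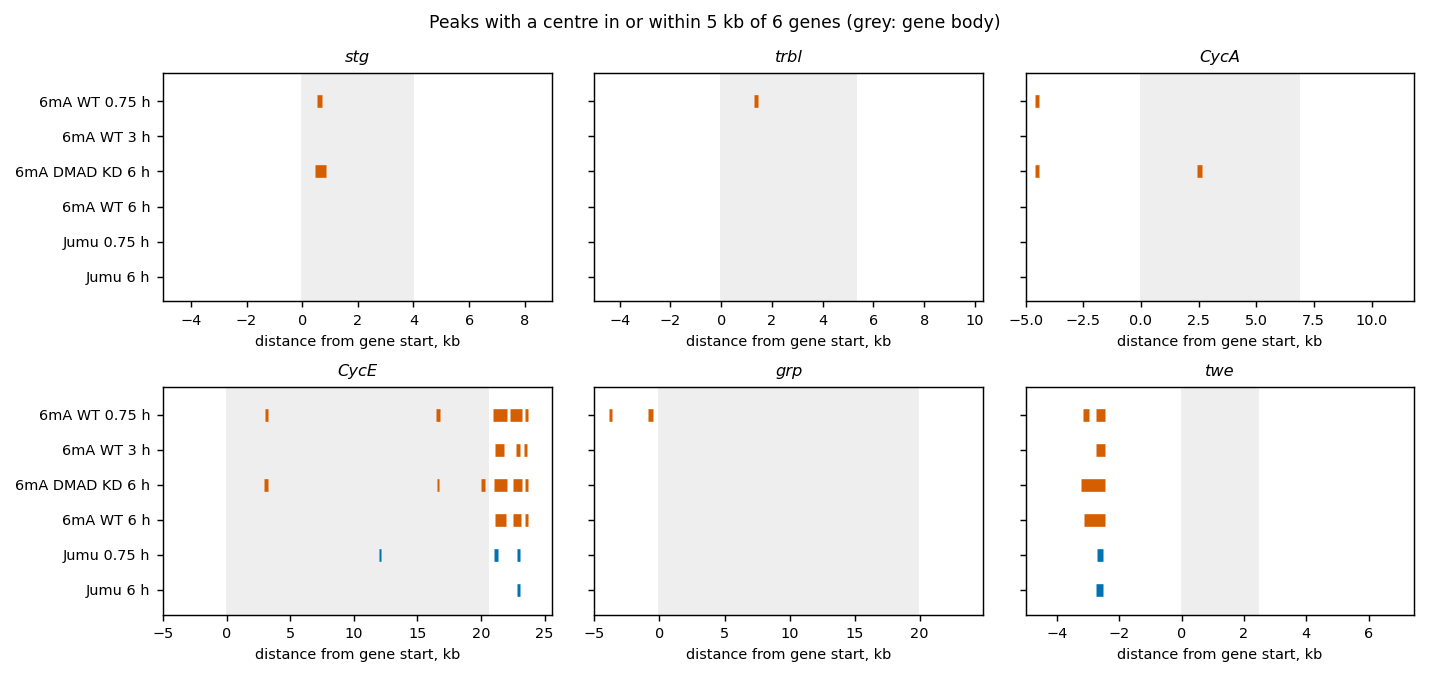
Peaks whose centre lies in or within 5 kb of 6 genes, in 6 lists, by distance from the gene start in kb along the direction of transcription, with the gene body in grey. Orange marks 6mA and blue the Jumu pull-down. *CycB*, *CycB3* and *Z600* have none and are not drawn.

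The 3 intronic peaks seen in a single list are shown whole because they are the member sequences on which such a peak stands alone, in the direction of transcription of their gene. Capitals mark tandem runs of a unit of 1 to 3 bases that are 9 bases or longer.
trbl, 6mA at 0.75 h (chr3L:20400171-20400320, - strand): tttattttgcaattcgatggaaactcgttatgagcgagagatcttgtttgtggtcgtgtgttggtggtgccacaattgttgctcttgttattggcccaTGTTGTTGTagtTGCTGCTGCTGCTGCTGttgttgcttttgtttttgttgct
CycA, 6mA in DMAD knockdown at 6 h (chr3L:11830945-11831140, - strand): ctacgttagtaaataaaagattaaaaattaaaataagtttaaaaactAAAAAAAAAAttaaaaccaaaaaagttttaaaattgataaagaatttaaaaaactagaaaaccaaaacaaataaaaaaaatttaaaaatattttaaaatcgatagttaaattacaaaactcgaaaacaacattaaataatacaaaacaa
CycE, Jumu pull-down at 0.75 h (chr2L:15735988-15736177, - strand): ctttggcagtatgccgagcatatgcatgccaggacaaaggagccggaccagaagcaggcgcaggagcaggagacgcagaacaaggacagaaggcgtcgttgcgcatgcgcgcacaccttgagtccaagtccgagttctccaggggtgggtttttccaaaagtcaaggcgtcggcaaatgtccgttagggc
The *trbl* peak had 17.3% of its 150 bases in such runs. Of windows of that length on the same chromosome arm, 17.1% have at least 1 run. That is a different measure, and the share of bases in runs was not computed for windows. The *CycA* peak was 85.7% A or T with 5.1% of its bases in a run, and 21.7% of windows of its length have at least 1 run. The *CycE* peak had none and was 42.1% A or T, where 20.5% of windows have a run.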

How the data were processed

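RNA-seq was from embryos and ovaries of w1118 and mutants, with 2 libraries per group, and peak lists from 1 library each. The authors removed ribosomal RNA reads with Bowtie2, aligned what remained by STAR (dm6), and deposited FPKM values from Cuffdiff, pooled to 1 value per group, in 7 tables. TopHat2 and FastQC are also named in the submitters' processing notes. Depth per RNA-seq library is not given in the sources used here, so the precision of an FPKM is unknown. The tables do not list the same genes: 9983 in the 0.75-h *jumu* table, 11179 in the *DMAD* table, 11482 in the ovary table, 16668 in the 3-h *jumu* table and 17535 in each table of the stage series, and the first 2 list no zeros, so counts over all genes differ in what they could find. For peaks, the authors mapped reads with Bowtie2 and called them with MACS2 per library, wild-type 6mA against IgG, and deposited a score, 10 times the -log10 of the q value.

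No test could be run. Groups, taken from the sample titles, were compared by the difference in log2(FPKM + 1) and called at 1 or more, where either group reached an FPKM of 1. The calling step was run on copies of the reference values with known changes and no added noise. That checks the code and gives no error rate. Peaks, genes and transposons were placed on dm6 with Ensembl release 115, and sequences were read from the RefSeq Release 6 genome. Computations used Python 3.11.15, numpy 2.4.6 and pandas 2.3.3. Members, gene lists and comparisons were chosen with earlier results of these data known, the ratios of members and the wild-type range, for members and pathway genes, after the levels had been seen. Named pathway genes are among the up to 3 with the largest called change in each list, direction and comparison; genes alike in pattern had to reach an FPKM of 10 somewhere. Alternatives were the pseudocount, scaling, control group, threshold, low-value filter, peak window, peak limit and correlation measure. The *DMAD* knockdown and *zld* overexpression libraries of RNA were not analysed here. Of 5 pathway lists 64 of 68 symbols matched, and of 7 maternal markers 6.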

Additional observations from a re-analysis of the deposited data

Results flagged for a closer look

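In *jumu* M-,Z+ embryos *twe* lay above the wild type of its own table at 3 h and slightly below it at 0.75 h. At 3 h the difference in log2(FPKM + 1) was 1.44, with 50.4 FPKM in M-,Z+ embryos against 18.0 in wild type, and at 0.75 h it was -0.14, with 132 against 146 FPKM. The difference between the stages was not tested, since each group has 1 pooled value, and the M-,Z+ level lay within the wild-type collections at both stages, 18.0 to 62.8 FPKM at 3 h and 123 to 146 FPKM at 0.75 h. Against the stage-series wild type, with quantile normalization, both signs turned round, to -0.31 at 3 h and 0.17 at 0.75 h.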

How the results depend on the processing

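No paired analysis was possible because each table holds 1 pooled value per group, and for the same reason no library could be left out. Of 282 differences of single members under an alternative, 242 kept their side of the limit, 11 lost their call, 22 gained one and 7 reversed. The cause was not tested for any of them. Every setting below that takes a wild type or a stage from another table was also quantile normalized, so it changed both choices at once and the part of each was not separated. *Z600* is not in every table and was left out of every quantile-normalized count of members, so those counts are over the other 8 members.

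The number of members called higher in M-,Z+ embryos at 3 h, 2 as reported, was 1 after quantile normalization, 1 after scaling to the median, 1 with the stage-series wild type, 5 with the *DMAD*-table wild type, and 1 when the value also had to lie outside the 3 wild-type values, on either scale. With the stage-series wild type the 1 called was *stg* at 1.10, while *CycB* at 0.92 and *twe* at -0.31 were not called. With the *DMAD*-table wild type *trbl* was at 1.15. In M-,Z- embryos the members higher, 2 as reported, were 6 with the *DMAD*-table wild type, where *CycE* was at 1.62, and 4 at a 1.5-fold threshold. Those lower, 0 as reported, were 1 after quantile normalization, 2 after median scaling, 2 at 1.5-fold and 1 with the stage-series wild type. With that wild type *twe* stood at 0.87. M-,Z- over M-,Z+ embryos had 3 members higher, 1 after either scaling, and 0 lower, 1 at 1.5-fold. In M- DMAD embryos 3 members were lower, 1 after quantile normalization (without *Z600*, which is not in every table), 5 with either other wild type, where *CycB* was at -1.41 (stage series) and -1.29 (*jumu* table). Wild-type embryos at 3 h had 3 members lower than at 0.75 h, 4 after quantile normalization alone, 5 with both stages from the *jumu* tables, and 7 with 3 h from the *DMAD* table and 0.75 h from the *jumu* table, where *CycB3* was at -1.92. At 6 h against 3 h, 1 member was higher and 2 lower, 2 and 4 at 1.5-fold.

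Genes called among all genes, in either direction, numbered 2309 in M-,Z+ embryos, 1556 after quantile normalization alone, 4703 at 1.5-fold, 789 with the stage-series wild type and 3853 with that of the *DMAD* table. In M-,Z- embryos they numbered 3858, 2289 after quantile normalization, 6251 at 1.5-fold and 1530 with the stage-series wild type. M-,Z- over M-,Z+ embryos gave 1659, 955 after quantile normalization and 3741 at 1.5-fold. M-,Z+ embryos at 0.75 h gave 394, 671 with a pseudocount of 0.1, 1022 at 1.5-fold and 822 with the stage-series wild type. M- DMAD embryos gave 2518, 4457 at 1.5-fold, 4199 with the stage-series wild type and 3790 with that of the *jumu* table. Ovaries gave 526, 832 with a pseudocount of 0.1, 246 after quantile normalization and 1126 at 1.5-fold. Wild-type embryos at 6 h against 3 h gave 3899, and 5890 at 1.5-fold.

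Scaling to the median moved the median of all genes to -0.36 in M-,Z+ and -0.72 in M-,Z- embryos, -0.25 between them and 0.80 at 3 h against 0.75 h. The share of calls that were higher went with it, 23.0% in place of 50.1% in M-,Z+ embryos, 15.1% in place of 47.4% in M-,Z- embryos, 9.55% in place of 28.0% between them, and 69.7% in place of 46.3% at 3 h against 0.75 h. After quantile normalization it was 49.5% in place of 82.0% in M- DMAD embryos, 41.7% in place of 28.0% in M-,Z- over M-,Z+ embryos and 34.6% in place of 23.6% in ovaries.

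Counting peaks with a centre inside the gene, 0 members had one at 3 h and 0 at 6 h, 1 each as reported. Within 5 kb, 2 had one at 3 h, 2 at 6 h, 2 in the Jumu pull-down at 0.75 h, in place of 1, and 2 at 6 h, in place of 0. By Spearman correlation 0 or 1 of the 3 genes most like each member were found again.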
